A study of Arabidopsis thaliana with 21 samples.

Results

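The H2A.Z peaks called in *mbd9-1* seedlings were set against histone H4 acetylation (H4Ac) in wild type (WT) plants. The question was whether H2A.Z present without MBD9 lies away from chromatin acetylated in WT. The peaks were all those of the 3 *mbd9-1* H2A.Z lists, with 5215 peaks in replicate 1, 5733 in replicate 2 and 5633 in replicate 3. Together these are 16581 of the 73259 peaks in the 9 lists analysed, which also hold 23644 peaks of 3 WT H2A.Z libraries and 33034 peaks of 3 WT H4Ac libraries. Of the *mbd9-1* peaks, 36.1%, 26.3% and 58.8% in replicates 1, 2 and 3 shared no base with any WT H2A.Z peak. These were not seen in WT and cannot be said to remain from it.

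The study mapped H2A.Z and H4Ac by chromatin immunoprecipitation and sequencing (ChIP-seq) in *Arabidopsis thaliana* of the Col-0 ecotype. All plants were seedlings aged 6 days, of which the roots were left out, and the tissue was cross-linked with formaldehyde. The *mbd9-1* plants carry a T-DNA insertion in MBD9 and stand for a single mutant line, and WT plants were Col-0 without an insertion. The sheared chromatin of each sample was divided between an antibody against H2A.Z and a serum against the acetylated tail of H4, so that WT H2A.Z and WT H4Ac libraries of the same replicate number share their chromatin, and the *mbd9-1* H4Ac, *arp6-1* and input libraries were not analysed here.

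H2A.Z is a variant of histone H2A that the SWR1 complex exchanges into nucleosomes. In plants it is found mostly near the start of genes, and over the bodies of many genes that respond to the environment. Acetylation of the H4 tail marks open chromatin near the start of transcribed genes, and MBD9 is a partner of SWR1 with a methyl-CpG-binding domain and a bromodomain, a protein module that binds acetylated lysines.

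A WT H4Ac site is a peak with at least 50% of its length inside a peak of another WT H4Ac replicate, merged with other such peaks at an overlap of at least 200 bp. There were 11115 such sites, which covered 9.07% of chromosomes 1 to 5. An H2A.Z peak is called under H4Ac when these sites cover at least 50% of its length, and away from H4Ac when it shares no base with them. The lists hold places only, with no height or read count, so the reads behind each peak are unknown and no level of H2A.Z or H4Ac can be read from them.

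To show what both classes look like, the central 120 bases of 6 *mbd9-1* sites are printed from the RefSeq TAIR10.1 genome, plus strand, 5′ to 3′. A site here is a region kept by the same rule of reproducibility among the *mbd9-1* lists and covered for at least 50% in each of the 3. CG dinucleotides, which a methyl-CpG-binding domain is named for, are in capitals. The first 3 are the widest such sites wholly under WT H4Ac sites. They are centred in coding exons of PARVUS (AT1G19300), a glycosyltransferase of cell wall xylan synthesis, of AT5G25010, and of SLO1 (AT2G22410), a pentatricopeptide repeat protein.
PARVUS, chr1:6672139-6672258: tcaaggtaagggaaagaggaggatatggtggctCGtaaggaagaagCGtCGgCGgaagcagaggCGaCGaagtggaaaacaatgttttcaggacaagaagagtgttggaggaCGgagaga
AT5G25010, chr5:8616533-8616652: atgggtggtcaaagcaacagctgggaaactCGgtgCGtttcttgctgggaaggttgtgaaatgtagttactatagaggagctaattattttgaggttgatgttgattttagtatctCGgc
SLO1, chr2:9509306-9509425: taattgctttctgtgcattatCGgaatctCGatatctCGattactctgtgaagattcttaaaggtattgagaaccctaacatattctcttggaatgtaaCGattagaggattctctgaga

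The next 3 are the widest such sites with no peak of any H4Ac list within 1000 bp. They are centred in an intron of AT5G17160, in the pseudogene AT3G43825, and in a coding exon of CSLD5 (AT1G02730), a cellulose synthase-like gene.
AT5G17160, chr5:5640590-5640709: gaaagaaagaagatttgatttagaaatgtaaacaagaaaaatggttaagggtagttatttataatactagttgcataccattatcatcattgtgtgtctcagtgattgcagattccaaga
AT3G43825, chr3:15672135-15672254: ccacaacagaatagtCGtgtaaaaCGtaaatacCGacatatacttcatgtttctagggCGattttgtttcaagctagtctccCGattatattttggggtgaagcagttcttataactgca
CSLD5, chr1:596682-596801: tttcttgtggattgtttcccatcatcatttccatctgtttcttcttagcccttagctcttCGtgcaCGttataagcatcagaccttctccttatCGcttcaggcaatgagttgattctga

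The windows under H4Ac held 7, 3 and 4 CG dinucleotides, and those away from it held 0, 5 and 3. The letters CG, which read the same on both strands, were also counted in the same window of every reproducible *mbd9-1* site. At least 1 CG stood in 95.6% of the 597 windows under H4Ac and in 93.2% of the 3218 windows away from H4Ac, with a median of 5 and of 4. Of all adjoining windows of 120 bases along chromosomes 1 to 5, 86.6% held a CG.

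The PARVUS site spanned 1128 bp, and *mbd9-1* lists 1, 2 and 3 covered 91.8%, 95.8% and 52.8% of it, against 77.7%, 51.1% and 0% in the WT H2A.Z lists. The AT5G17160 site spanned 4355 bp, was covered for 69.9%, 97.9% and 70.7% by the *mbd9-1* lists and for 64.5%, 49.6% and 93.4% by the WT lists, and had its nearest H4Ac peak 4569 bp away. The CSLD5 site spanned 3537 bp, was covered for 88.8%, 72.6% and 51.1% by the *mbd9-1* lists and for 27.9%, 26.0% and 31.3% by the WT lists, and had its nearest H4Ac peak 1716 bp away. The widest sites away from H4Ac were wider than the widest ones under it. The latter had to lie wholly within H4Ac sites, so this is at least in part bound to the rule. Across all reproducible *mbd9-1* sites the median width was 719 bp under H4Ac and 768 bp away from it.

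The *mbd9-1* library of replicate 3 stood apart from the other *mbd9-1* libraries. Of its peaks, 61.9% were centred in a protein-coding gene, against 84.8% and 90.4% in replicates 1 and 2, and 15.3% were centred in a pseudogene, a class that includes transposable element genes in this annotation, against 6.60% and 4.05%. No partner in another *mbd9-1* replicate was found for 57.3% of its peaks, against 38.7% and 44.7%. Its mean GC content was 39.1%, against 41.6% and 41.4%, and 64.4% of its peaks had the narrowest width of its list, 381 bp. The comparisons are therefore given per library, and the means also without this one.

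The share of H2A.Z peaks under WT H4Ac was smaller in every *mbd9-1* library than in any WT library. Of the *mbd9-1* peaks, 830 (15.9%), 1051 (18.3%) and 450 (7.99%) were under H4Ac in replicates 1, 2 and 3, against 2482 (26.8%), 1516 (24.2%) and 1881 (23.2%) of the WT peaks. The 95% Wilson intervals, which cover counting error only, were 14.9% to 16.9%, 17.4% to 19.4% and 7.31% to 8.73% in *mbd9-1*, against 25.9% to 27.7%, 23.2% to 25.3% and 22.3% to 24.1% in WT. Over all WT H2A.Z peaks together the share was 24.9%. The groups did not overlap, and the lowest share was that of *mbd9-1* replicate 3. Counted in bases, 13.6%, 14.8% and 7.58% of the length of the *mbd9-1* peaks was under H4Ac, against 21.8%, 20.5% and 19.1% of that of the WT peaks. H4Ac sites cover 9.07% of the chromosomes, which *mbd9-1* replicates 1 and 2 and all WT libraries exceeded and *mbd9-1* replicate 3 did not. That share takes in all of the chromosomes, whereas most H2A.Z peaks lie in genes. At 10% to 15% of the gene body, H4Ac sites covered 36.9% of protein-coding genes. The 9.07% is thus no measure of the overlap that the place in genes alone would give.

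The mean share was 14.1% ± 5.41 in *mbd9-1* and 24.7% ± 1.88 in WT (SD, n = 3 each), a difference of -10.6 percentage points. A two-sided exact permutation test over libraries gave p = 0.1, the smallest that 3 libraries against 3 allow, and 0.16 after Benjamini-Hochberg adjustment over the 8 comparisons made over libraries. Without *mbd9-1* replicate 3 the difference was -7.60 percentage points, and the groups still did not overlap. The replicates are biological triplicates by the study's methods.

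The deficit was seen against each WT H4Ac list alone. Against H4Ac list 1, 16.7%, 19.2% and 8.01% of the *mbd9-1* peaks were under an H4Ac peak, against 27.6%, 25.0% and 24.0% of the WT peaks. Against list 2 the shares were 13.1%, 15.3% and 6.76% in *mbd9-1*, against 24.2%, 21.8% and 21.1% in WT, and against list 3 they were 13.4%, 16.2% and 6.99%, against 25.0%, 22.6% and 21.9%. Against each of the lists the highest *mbd9-1* share was below the lowest WT share. Since WT H2A.Z and H4Ac of the same number share chromatin, each list was also set only against H4Ac lists of the other numbers, which left a difference of -9.94 percentage points, with means of 11.3% in *mbd9-1* and 21.3% in WT.

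**Figure D1:**
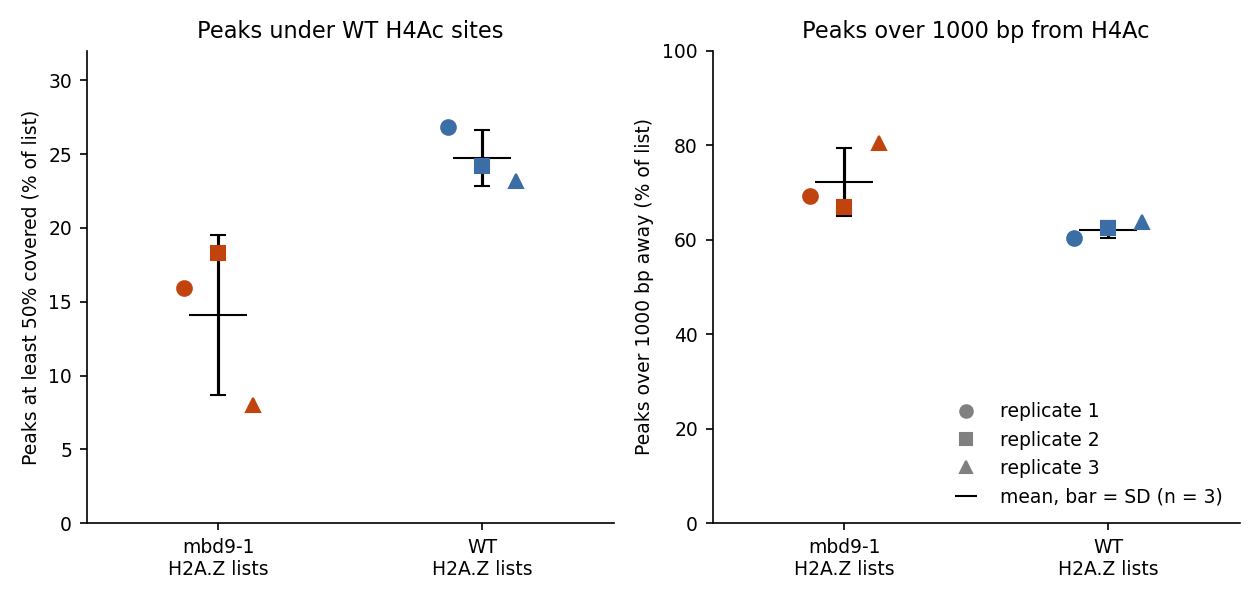
Share of the peaks of each H2A.Z list with at least 50% of their length under WT H4Ac sites (left) and share over 1000 bp from any WT H4Ac site (right), in percent of the list, with *mbd9-1* left of WT. Symbols are replicates, and lines with bars are means with SD (n = 3 each). The *mbd9-1* libraries sit between 7.99% and 18.3% under H4Ac, all below the WT libraries.

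The difference was of similar size within subsets of the lists. Among peaks centred in protein-coding genes, 17.6%, 19.3% and 12.0% of the *mbd9-1* peaks were under H4Ac, against 28.8%, 26.2% and 25.4% of the WT peaks, a difference of -10.5 percentage points (exact permutation test, p = 0.1). Among peaks held by another replicate of their genotype the shares were 15.5%, 16.2% and 12.6% in *mbd9-1*, against 24.9%, 24.4% and 24.2% in WT. Replicate 3 was thus nearer to the other *mbd9-1* libraries in these subsets than over its whole list. For peaks held by another replicate this is at least in part bound to the filter, which keeps peaks shared with those libraries. Of the 862 peaks of replicate 3 in pseudogenes, 1.62% were under H4Ac.

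The *mbd9-1* peaks that coincide with WT H2A.Z and those that do not were also set apart. Of the *mbd9-1* peaks with at least 50% of their length in a reproducible WT H2A.Z site, 16.1%, 17.6% and 12.0% were under H4Ac. Of those that shared no base with any WT H2A.Z peak, which were 36.1%, 26.3% and 58.8% of the lists, 16.8%, 22.0% and 5.19% were under H4Ac. The order of the 2 subsets differed between libraries. In replicates 1 and 2 the peaks without WT H2A.Z had the higher share, and in replicate 3 the lower.

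The share under H4Ac was higher among narrow peaks than among wide ones in all 6 libraries. A peak is under H4Ac by a share of its own length, and the H4Ac sites had a median width of 922 bp. Wide peaks thus meet the rule less easily, and the order of the widths is at least in part bound to it. At the most common width of each list, 17.9%, 23.8% and 8.68% of the *mbd9-1* peaks were under H4Ac, against 31.7%, 26.8% and 26.9% of the WT peaks. Among wider peaks the shares were 14.1%, 15.4% and 6.74% for *mbd9-1*, against 24.7%, 22.3% and 21.2% for WT. The difference between genotypes stood in both classes of width. On each of the 5 chromosomes the *mbd9-1* share ran from 14.7% to 17.3% in replicate 1, from 18.1% to 18.8% in replicate 2 and from 6.71% to 8.77% in replicate 3, below the lowest WT share on any chromosome, 21.9%.

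Seen from the acetylated sites, most carried no H2A.Z peak over at least 50% of their length in either genotype. Of the 11115 H4Ac sites, *mbd9-1* peaks covered at least 50% of 576 (5.18%), 761 (6.85%) and 157 (1.41%), against 1825 (16.4%), 1047 (9.42%) and 1264 (11.4%) covered by WT peaks. The lists differ in length, with 5215 to 5733 peaks in *mbd9-1* and 6263 to 9260 in WT. They cover 3.22%, 3.90% and 2.30% of chromosomes 1 to 5 in *mbd9-1*, against 6.20%, 3.78% and 5.03% in WT. The counts of H4Ac sites were not corrected for this. By another measure, the share of peaks under H4Ac, lists cut to the 5215 widest peaks each still differed by -8.64 percentage points. The means were 13.8% in *mbd9-1* and 22.4% in WT.

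Around the centres of H2A.Z peaks inside genes, WT H4Ac was most frequent at the peak itself in both genotypes, and it was there that the libraries of the genotypes differed. At the centre, 17.8%, 19.7% and 12.1% of the genic *mbd9-1* peaks had H4Ac, against 29.0%, 26.3% and 25.6% of the genic WT peaks. At 1000 bp towards the gene end the values were 5.29%, 5.19% and 4.62% in *mbd9-1*, against 4.78%, 5.34% and 4.76% in WT. At 1000 bp towards the gene start they were 6.94%, 6.60% and 7.31%, against 6.92%, 6.78% and 6.89%. At both of these places the ranges of the genotypes overlapped. The highest point was 100 bp or 200 bp to the start side of the centre in *mbd9-1*, and 100 bp to that side or at the centre in WT.

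**Figure D2:**
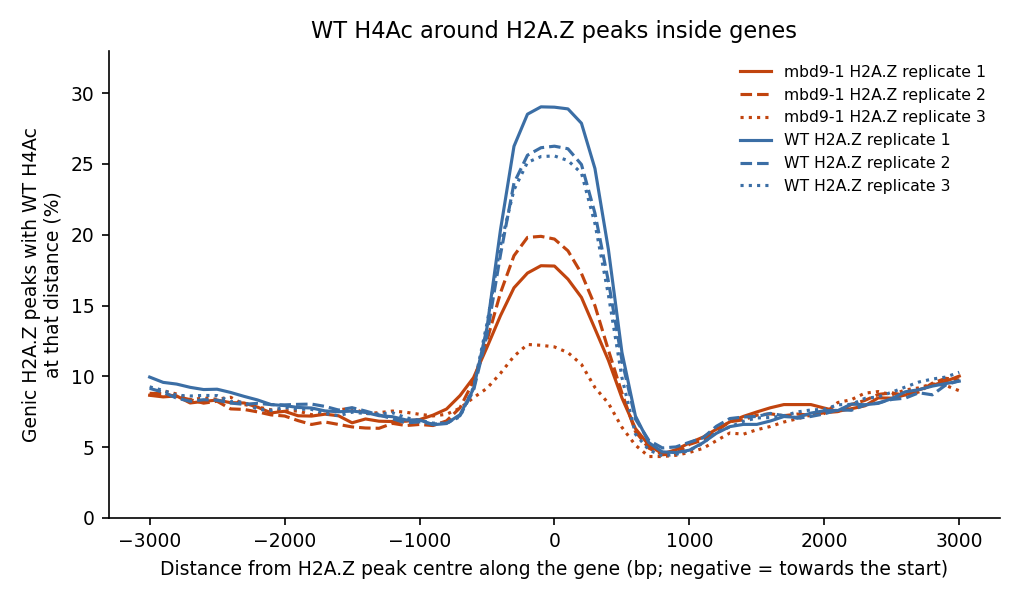
Percent of H2A.Z peaks centred in a protein-coding gene that have a WT H4Ac site at each distance from the peak centre, in bp along the direction of the gene, with *mbd9-1* in red and WT in blue. Each line is a library. At the centre the *mbd9-1* lines reach 12.1% to 19.7% and the WT lines 25.6% to 29.0%, and at 1000 bp on either side the lines of both genotypes run together.

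The share of peaks over 1000 bp from H4Ac was larger in *mbd9-1* than in WT. Peaks that touch H4Ac count as 0 bp away, so this share is bound to the overlap given above and is not a separate result. Over 1000 bp from any WT H4Ac site were 69.3%, 66.9% and 80.4% of the *mbd9-1* peaks, against 60.3%, 62.4% and 63.7% of the WT peaks. The mean was 72.2% ± 7.19 in *mbd9-1* and 62.2% ± 1.73 in WT (SD, n = 3 each), a difference of 10.1 percentage points (two-sided exact permutation test, p = 0.1, adjusted p = 0.16). The groups did not overlap. Without *mbd9-1* replicate 3 the difference was 5.96 percentage points, and the groups were still apart.

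Among the peaks away from H4Ac, the median distance differed little outside replicate 3. The median distance from edge to edge was 3915, 3741 and 5601 bp in *mbd9-1*, against 3673, 3640.5 and 3673 bp in WT. The middle 50% of these distances ran from 1845 to 7602 bp in *mbd9-1* replicate 1, from 1784 to 6749 bp in replicate 2 and from 2403 to 17976 bp in replicate 3. Over 5000 bp from H4Ac were 31.7%, 29.0% and 48.1% of all *mbd9-1* peaks, against 26.1%, 27.3% and 28.1% of WT peaks. Within 50000 bp of H4Ac were 96.9%, 99.4% and 86.5% of all *mbd9-1* peaks, against 99.7%, 99.6% and 99.6% of WT peaks. The tail of distant peaks was thus longest in replicate 3 and was also present, though smaller, in replicate 1.

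**Figure D3:**
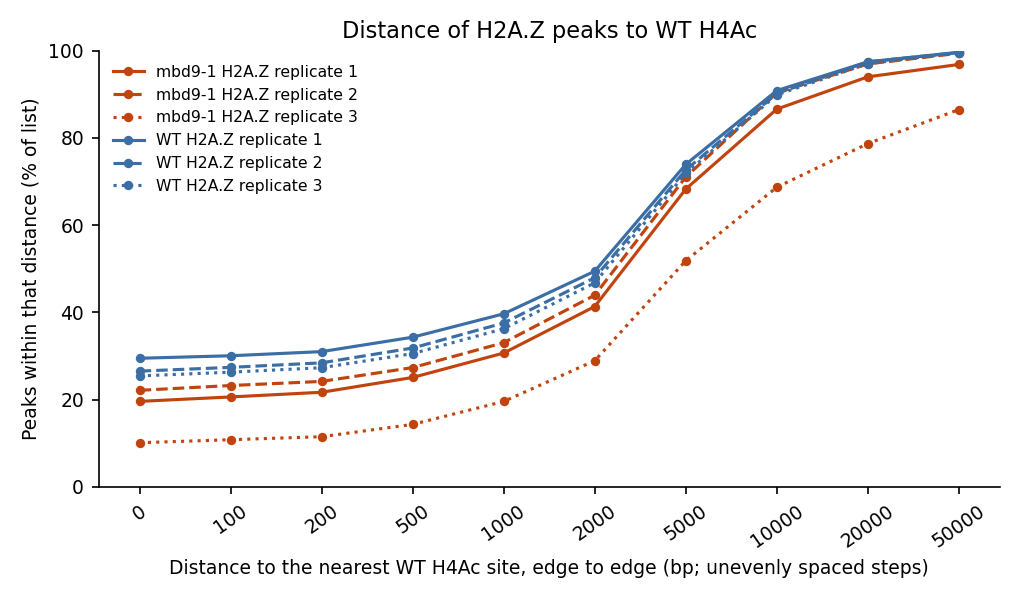
Cumulative percent of the peaks of each H2A.Z list within a given distance of the nearest WT H4Ac site, edge to edge in bp on unevenly spaced steps, with *mbd9-1* in red and WT in blue. Each line is a library, and a distance of 0 holds all peaks that share a base with H4Ac. The *mbd9-1* lines start lower, and that of replicate 3 stays below the others up to 50000 bp.

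The sites farthest from H4Ac were picked by that distance, so that they lie far from it is no result. Among sites called in all 3 *mbd9-1* lists, the 3 farthest from any H4Ac peak were in a coding exon of AT4G06534 (chr4:3356620-3357789), at 305728 bp, in a coding exon of AT3G32047 (chr3:13061089-13062195), at 269617 bp, and in an intron of AT3G32040 (chr3:13047634-13049372), at 256162 bp. The site in AT4G06534 was covered for 100%, 65.2% and 55.3% by the *mbd9-1* lists and for 0% by each WT list. The site in AT3G32047 was covered for 78.0%, 100% and 55.7% by the *mbd9-1* lists and for 85.9%, 71.9% and 100% by the WT lists. The site in AT3G32040 was covered for 78.1%, 92.1% and 82.6% by the *mbd9-1* lists and for 80.8%, 49.2% and 91.1% by the WT lists. All 3 were centred 594 to 670 bp after a transcription start site (TSS).

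The peaks were next placed in genes, each by its centre. In the first 50% of a protein-coding gene body were 59.2%, 64.7% and 37.7% of the *mbd9-1* peaks, against 65.5%, 62.6% and 62.6% of the WT peaks. The mean was 53.8% ± 14.3 in *mbd9-1* and 63.6% ± 1.64 in WT (SD, n = 3 each), a difference of -9.71 percentage points that was within the spread of the libraries (two-sided exact permutation test, p = 0.3, adjusted p = 0.3). The groups overlapped, and without *mbd9-1* replicate 3 the difference was -1.62 percentage points. By place in relation to genes, 6.29%, 4.69% and 10.0% of the *mbd9-1* peaks lay within 2000 bp upstream of a gene, and 7.42%, 3.54% and 24.9% lay neither in a gene, nor upstream, nor within 1000 bp downstream. In WT the upstream share ran from 5.64% to 7.15% and the share outside all of these from 3.37% to 3.64%.

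The *mbd9-1* peaks were centred farther past the nearest TSS than WT peaks, counting all peaks, in genes or not. The median distance from the nearest protein-coding TSS to the peak centre was 508, 507 and 479 bp in *mbd9-1*, against 432, 433 and 437 bp in WT. The mean of the medians was 498 bp ± 16.5 in *mbd9-1* and 434 bp ± 2.65 in WT (SD, n = 3 each), a difference of 64 bp (two-sided exact permutation test, p = 0.1, adjusted p = 0.16). The groups did not overlap, and without *mbd9-1* replicate 3 the difference was 73.5 bp. With the lists cut to the 5215 widest peaks each, it fell to 44.3 bp. The difference was present in both classes of peak. Under H4Ac the medians were 501, 471 and 448 bp in *mbd9-1*, against 405, 409 and 422 bp in WT, and away from H4Ac they were 509.5, 520 and 485.5 bp, against 455, 452 and 450 bp.

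Within *mbd9-1*, peaks under H4Ac were placed nearer the start of their gene than peaks away from H4Ac. Of the genic peaks under H4Ac, 85.6%, 87.2% and 87.4% were in the first 50% of the body, against 66.5%, 67.7% and 56.9% of the genic peaks away from H4Ac. The difference, under minus away, was 23.1 percentage points ± 6.41 (SD, n = 3), with means of 86.7% and 63.7%, and it had the same sign in 3 of 3 libraries (two-sided exact sign-flip permutation test, p = 0.25, the smallest that 3 pairs allow, adjusted p = 0.286). Among peaks wider than the most common width it was 14.3 percentage points. The same order stood in WT, with 90.2%, 88.0% and 90.3% under H4Ac and 66.3%, 65.4% and 65.1% away from it. H4Ac sites themselves covered the most genes between 10% and 15% of the body, at 36.9%, against 4.13% in the last 5%. The classes are drawn by H4Ac, so peaks under it lie where it lies. The difference in place is thus at least in part bound to how the classes were made, here and in the counts that follow. It is no trait of *mbd9-1* alone.

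The last 25% of the gene body held few peaks under H4Ac. In *mbd9-1* these were 3.21%, 2.79% and 2.14% of the genic peaks under H4Ac, against 11.8%, 11.2% and 17.4% of those away from it. By exon and intron the classes were closer. Coding exons held 73.9%, 75.2% and 67.4% of the genic *mbd9-1* peaks under H4Ac, against 77.5%, 77.2% and 71.8% of those away, and introns held 15.9%, 16.1% and 18.3%, against 17.2%, 17.2% and 19.5%. The 5′ UTR held 7.71%, 5.88% and 11.9%, against 3.10%, 3.09% and 4.07%.

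**Figure D4:**
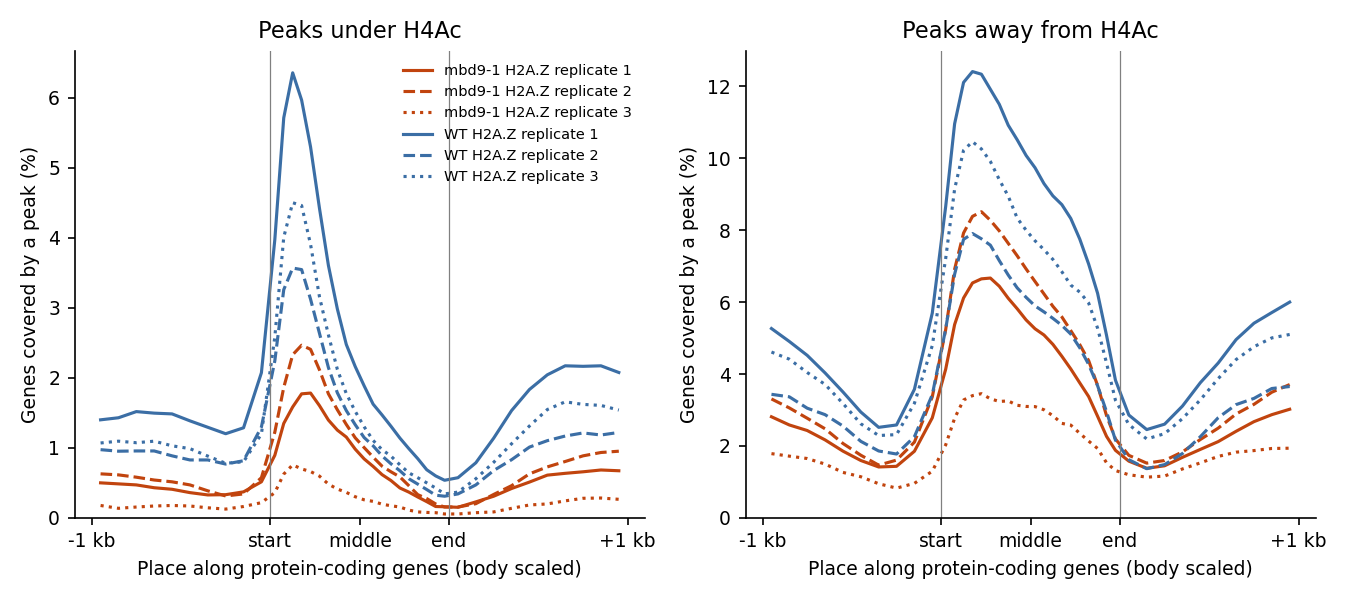
Percent of protein-coding genes covered by an H2A.Z peak at each place along the gene, with the body scaled from start to end and 1 kb on either side, for peaks under WT H4Ac (left) and away from it (right), with *mbd9-1* in red and WT in blue and different vertical scales. Each line is a library. Peaks under H4Ac are highest between 10% and 25% of the body and are rare at the gene end, and peaks away from H4Ac are spread farther along the body.

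Along the gene, the *mbd9-1* peaks under H4Ac covered most genes at 20% to 25% of the body in replicate 1, 15% to 20% in replicate 2 and 10% to 15% in replicate 3, and all 3 WT libraries did so at 10% to 15%. The highest point was 11.3, 16.0 and 13.7 times the value in the last 5% of the body in *mbd9-1*. For peaks away from H4Ac it was 3.55, 3.88 and 2.63 times that value.

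Base composition also differed between the classes. Peaks of *mbd9-1* under H4Ac had a mean GC content of 43.1%, 42.4% and 42.5%, against 41.3%, 41.2% and 38.9% for peaks away from it. They held 4.41, 4.03 and 4.16 CG dinucleotides per 100 bp on average, against 3.51, 3.40 and 2.75. In WT, peaks under H4Ac held 3.88, 3.90 and 3.63 CG dinucleotides per 100 bp, against 3.39, 3.42 and 3.15 away from it. The order was the same in all 6 libraries, and the part of base composition in the calls was not tested.

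Peaks away from H4Ac can still lie in a gene that has an H4Ac site at another place. Of the genic *mbd9-1* peaks away from H4Ac, 10.9%, 9.31% and 15.8% were in a gene with a WT H4Ac site in its body or the 500 bp upstream, against 8.29%, 8.86% and 8.92% in WT. Of all 27444 protein-coding genes, 46.7% had such a site, a share that cannot be set directly against these, since peaks that touch H4Ac are left out of them. The gene-level counts below use the same window and count a mark in a gene when at least 2 of the 3 lists have a peak there.

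An *mbd9-1* H2A.Z peak in at least 2 lists was found for 4378 protein-coding genes (16% of 27444), a WT H4Ac peak in at least 2 lists for 12712 (46.3%), and both for 1356 (4.94%). Of the 4378 genes, 31.0% carried H4Ac (95% Wilson interval 29.6% to 32.4%) and 61.3% had no peak in any H4Ac list. Of the 7906 genes with WT H2A.Z in at least 2 lists, 38.2% carried H4Ac, which is the value to set against the 31.0%. Of the 1679 genes with H2A.Z in all 3 *mbd9-1* lists, 25.6% carried H4Ac. No value at that stricter threshold was computed for WT. Of the 3037 genes with WT H2A.Z in at least 2 lists and no *mbd9-1* peak in any, 48.0% carried H4Ac, close to the 46.3% of all genes. The share with H4Ac was thus lower among genes with *mbd9-1* H2A.Z than among all genes, and it was also lower among genes with WT H2A.Z.

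Per library, 33.1%, 33.6% and 30.2% of the genes with *mbd9-1* H2A.Z carried H4Ac, against 40.8%, 38.9% and 37.8% of the genes with WT H2A.Z. The mean was 32.3% ± 1.85 in *mbd9-1* and 39.2% ± 1.51 in WT (SD, n = 3 each), a difference of -6.86 percentage points (two-sided exact permutation test, p = 0.1, adjusted p = 0.16). The groups did not overlap, and at the level of genes replicate 3 was close to the other *mbd9-1* libraries. Without it the difference was -5.80 percentage points.

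The same question was asked of the H2A.Z sites of WT plants. Of 7428 reproducible WT H2A.Z sites, 1811 (24.4%) were under H4Ac, 241 (3.24%) partly so and 5376 (72.4%) away from it. A site was called in an *mbd9-1* library when its peaks covered at least 50% of the site. Sites under H4Ac were called in 16.5%, 25.2% and 5.19% of cases in *mbd9-1* replicates 1, 2 and 3, against 25.1%, 36.8% and 9.84% of the sites away from H4Ac. The 95% Wilson intervals, which cover counting error only and not the spread between libraries, did not overlap in any library. The closest were 4.26% to 6.31% under H4Ac and 9.07% to 10.7% away from it in replicate 3.

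The difference, under minus away, was -8.30 percentage points ± 3.47 (SD, n = 3), with means of 15.6% and 23.9%, and had the same sign in 3 of 3 libraries (two-sided exact sign-flip permutation test, p = 0.25, adjusted p = 0.286). It was -14.7 percentage points when 1 shared base made a call and -3.86 at 80% of the site. No *mbd9-1* library called 1259 (69.5%) of the sites under H4Ac and 3043 (56.6%) of those away from it. In all 3 *mbd9-1* libraries were 65 (3.59%) and 322 (5.99%).

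Sites partly under H4Ac were called in 32.8%, 52.7% and 9.54% of cases in the *mbd9-1* libraries, above the rate of sites away from H4Ac in replicates 1 and 2 and between the other classes in replicate 3. These sites were wide, with a median of 1322 bp, against 716 bp for sites under H4Ac and 797 bp for sites away from it. Within bins of width of 200 bp, weighted equally, the difference between sites under and away from H4Ac was -6.90 percentage points.

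In WT libraries the corresponding difference was smaller. The sites were rebuilt 3 times from a pair of WT lists and called in the WT list left out, which called 87.7%, 61.4% and 73.4% of the sites under H4Ac, against 87.9%, 61.3% and 76.4% of those away. On the same 3 sets, averaged, the *mbd9-1* libraries called 19.9%, 30.0% and 6.64% under H4Ac, against 29.0%, 41.8% and 11.8% away. The difference, under minus away, averaged -8.71 percentage points ± 3.33 in *mbd9-1* and -1.01 ± 1.73 in WT (SD, n = 3 each), which differed by -7.70 percentage points (two-sided exact permutation test, p = 0.1, adjusted p = 0.16). The groups did not overlap, and in bins of width the gap between them was -8.62. As a ratio of calls under H4Ac to calls away, the means were 0.655 in *mbd9-1* and 0.987 in WT (exact permutation test, p = 0.1).

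**Figure D5:**
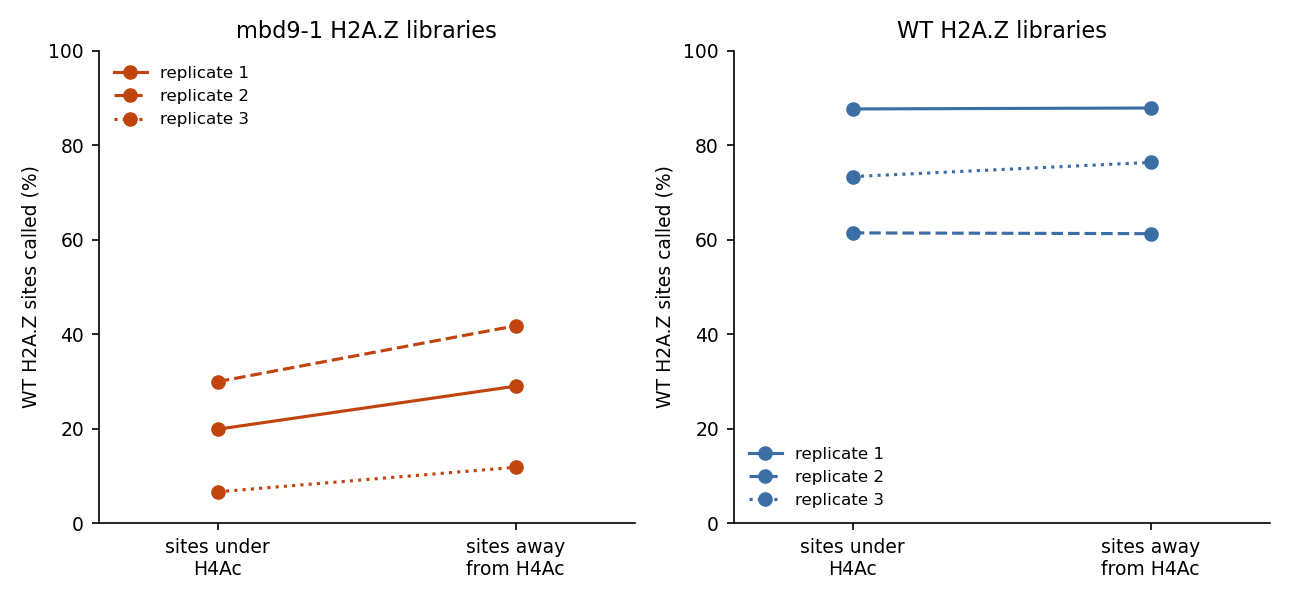
Percent of WT H2A.Z sites called in each library, for sites under WT H4Ac and sites away from it, in *mbd9-1* libraries (left) and WT libraries (right). Each line is a library, with *mbd9-1* values averaged over 3 sets of sites that were each rebuilt without a WT list, and WT values taken in the list left out. All 3 *mbd9-1* lines are lower for sites under H4Ac, at 6.64% to 30.0%, and the WT lines are nearly level.

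The same counts were made for 6 lists of named genes, to be read against the 46.3% of all genes with H4Ac and the 16% with *mbd9-1* H2A.Z. The background for WT H2A.Z in at least 2 lists is 7906 of 27444 genes, against 4378 for *mbd9-1*. A lower count in *mbd9-1* than in WT is thus found over all genes and is not particular to a list. Distances given for the peaks of a gene are to the nearest reproducible H4Ac site. Of 14 reference genes of steady expression, 12 had H4Ac in at least 2 lists, and none had an H2A.Z peak in any *mbd9-1* list or in at least 2 WT lists. Examples, named after their values were seen, are ACT7, an actin, and UBC21, a ubiquitin-conjugating enzyme, both with a peak in all 3 H4Ac lists. Of 11 nuclear photosynthesis genes, 1 had H4Ac in at least 2 lists and none had *mbd9-1* H2A.Z in at least 2. Only PRK, phosphoribulokinase of the Calvin cycle, had an *mbd9-1* peak at all, which covered 589 bp in replicate 2.

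Of 19 developmental regulators known as Polycomb targets, none had a peak in any H4Ac list, and 3 had *mbd9-1* H2A.Z in at least 2 lists, against 7 with WT H2A.Z. The 3, named here because they make up the count, were ABI3, LEC2 and PHE1. ABI3, a seed maturation factor, was covered for 1018, 1681 and 1114 bp in *mbd9-1* replicates 1, 2 and 3, and its *mbd9-1* peaks were 3653 to 4954 bp from H4Ac. LEC2, another seed factor, was covered for 0, 964 and 478 bp and was 11758 to 12063 bp from H4Ac. The floral MADS genes SEP3, SEP2 and AP1 and the meristem gene STM each had a peak in a single *mbd9-1* list, at 5160, 3438, 10913 and 11542 bp from H4Ac.

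Of 18 stress-induced genes, 7 had H4Ac and 5 had *mbd9-1* H2A.Z in at least 2 lists, against 8 with WT H2A.Z, and 1 had both. That gene was RD29A, a dehydration and cold response gene, where *mbd9-1* peaks covered 800, 1951 and 896 bp in replicates 1, 2 and 3 and 2 of 3 peaks were under H4Ac. The heat shock genes HSP70-4 and HSP101, both with WT H2A.Z and H4Ac in all 3 lists, had an *mbd9-1* peak only in replicate 2, of 471 bp in HSP70-4, where it touched an H4Ac site, and of 622 bp in HSP101, where it was under H4Ac. COR47, a cold-regulated dehydrin, had no H4Ac peak and was covered for 0, 588 and 381 bp, at 778 to 852 bp from H4Ac. The neighbour of RD29A, RD29B, named after its values were seen, had no H4Ac peak and was covered for 631, 1216 and 501 bp in *mbd9-1*.

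Of 13 genes of SWR1 and H2A.Z, 10 had H4Ac and 2 had *mbd9-1* H2A.Z in at least 2 lists, against 3 with WT H2A.Z. HTA8 and HTA11 encode H2A.Z itself. HTA8 had no H4Ac peak and was covered for 888, 1089 and 833 bp in the *mbd9-1* lists, 962 to 1069 bp from H4Ac. HTA11, also without H4Ac, had a peak only in replicate 2, of 1530 bp, against a peak in all 3 WT lists. MBD9, the gene that is disrupted, had H4Ac in 2 lists and was covered for 0, 471 and 381 bp in *mbd9-1*, at 1323 to 3902 bp from H4Ac, with no peak in WT.

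A further list held 10 loci at which H2A.Z was measured by quantitative PCR (qPCR), a control gene included. Of these, 3 had H4Ac and 2 had *mbd9-1* H2A.Z in at least 2 lists, against 7 with WT H2A.Z. No gene on this list had both marks in at least 2 lists. The study picked 6 of these loci by H2A.Z reads in the same *mbd9-1* and WT samples. AT2G34202, AT1G62760 and AT5G28410 were picked for less H2A.Z in *mbd9-1*. AT4G15960, AT1G76740 and AT3G21240 were picked for little change. The counts of this list are thus in part bound to that choice. The primers of the loci with an *mbd9-1* peak in the gene are printed 5′ to 3′, since they set the window in which H2A.Z was measured.
AT4G15960 forward: ctctcttccttgggataccgtacgat
AT4G15960 reverse: accacgtctccgtccacgtttaagt
AT1G76740 forward: aggctccagacaaaccgaagctagaa
AT1G76740 reverse: tcctttagagtctcccgcactgagtt
AT3G21240 forward: ctgaccaagcttggcgttaggaaact
AT3G21240 reverse: tgatctgagctcggttaggatggt

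The AT1G76740 primers bound a coding exon at chr1:28808074-28808191. This gene was covered for 2723, 1836 and 1978 bp by *mbd9-1* peaks, of which none was under H4Ac and the nearest was 4659 bp from a reproducible H4Ac site. The amplicon itself was touched by 1 *mbd9-1* list and 1 WT H2A.Z list. A single H4Ac list had a peak in the window of the gene, which takes in the 500 bp upstream. The nearest peak of any H4Ac list was 3287 bp from the amplicon. The AT3G21240 amplicon, in a coding exon at chr3:7456280-7456382, was touched by 2 *mbd9-1* lists and lay 6120 bp from the nearest H4Ac peak. The AT4G15960 amplicon, in a coding exon at chr4:9046784-9046896, was touched by 1 *mbd9-1*, 2 WT H2A.Z and 1 WT H4Ac list. The amplicons of AT2G34202 and AT1G62760 were touched by no *mbd9-1* list and by 2 WT H2A.Z lists each, at 1410 and 1328 bp from the nearest H4Ac peak. The primers of AT5G28410 matched the genome at 2 places, neither of which was touched by an *mbd9-1* list. Which of these amplicons an *mbd9-1* list touched is at least in part bound to how the study picked the loci, and is no separate result.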

How the data were processed

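Peak lists of 9 ChIP-seq libraries were used, 3 each of *mbd9-1* H2A.Z, WT H2A.Z and WT H4Ac, assigned from their labels. Reads were mapped by the authors to TAIR10 (Bowtie2) and filtered for quality and nuclear origin (Samtools). Their peaks were called with HOMER in each library against input, by its region option, at a threshold not given in the sources used here. Each deposited list holds chromosome, start and end in bp, with no count, score or p-value, and replicates were not pooled. Read numbers per library are not part of the lists and were not used here, and a call depends on them.

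Reproducible sites, coverage, distances and places came from code in Python 3.11.15 with NumPy 2.4.6, counts under H4Ac were equal with bedtools 2.31.1, and the steps were tested on simulated lists. Figures used matplotlib 3.10.9. Genes came from RefSeq TAIR10.1, whose chromosomes 1 to 5 hold every peak. The centre of a peak set its place, in a gene first, then within 2000 bp upstream, then within 1000 bp downstream.

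Genotypes were compared by two-sided exact permutation tests over libraries, whose smallest p is 0.1 for 3 against 3 and 0.25 for 3 pairs, so none can pass 0.05. Peaks, sites and genes were not treated as replicates.

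Genes named with values are up to 4 members of each of 6 lists, in list order, with an *mbd9-1* peak in at least 1 library, and the loci of the qPCR primers. ABI3, LEC2, PHE1, RD29B, ACT7 and UBC21 were named outside this rule, after their values were seen. Sites named are the 3 widest wholly under H4Ac, the 3 widest with no H4Ac peak within 1000 bp and the 3 farthest from any H4Ac peak, among sites called in all 3 *mbd9-1* lists. The members and lists were chosen with earlier results of these data known. The calls of WT sites in left-out WT lists, the share of genes with H4Ac, the subsets of genic and reproducible peaks and the leaving out of H4Ac lists were added after seeing the data. Alternatives were other H4Ac references, overlaps, distances, gene sets, widths and list lengths, each replicate left out, and a replicate block.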

Additional observations from a re-analysis of the deposited data

How the results depend on the processing

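All 102 alternative values of the 8 comparisons over libraries kept their direction. None could pass a threshold of 0.05 with these numbers of libraries. Those with a replicate block equal the main differences by construction and could not turn. The share under H4Ac and the share over 1000 bp away are bound to each other, so their values are not separate checks. Leaving out an *mbd9-1* list, the difference, *mbd9-1* minus WT, ran from -12.8 to -7.60 percentage points for the share under H4Ac, from 5.96 to 12.7 for the share over 1000 bp away, from -15.1 to -1.62 for the first 50% of the gene body, from 59 to 73.5 bp for the distance from the TSS and from -7.51 to -5.80 percentage points for genes with H4Ac. Leaving out a WT H2A.Z list, these ran from -11.4 to -9.61, from 9.13 to 10.8, from -10.2 to -8.76, from 63 to 65.5 bp and from -7.53 to -6.05. The difference within *mbd9-1*, under minus away, ran from 19.3 to 25.0 percentage points for the place in the gene and from -10.1 to -6.67 for calls at WT sites. Leaving out a WT H4Ac list, the difference in share under H4Ac ran from -10.1 to -9.80. With a replicate block the difference in share under H4Ac was -10.6 percentage points, with an exact sign-flip p of 0.25 over 3 pairs. No comparison could pass 0.05 with or without the block, so there was no call for it to change. Same-numbered *mbd9-1* and WT libraries did not deviate together at 8935 H2A.Z regions, with correlations of -0.024, -0.0062 and 0.033, so the numbers were not taken to pair samples.

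The settings that moved a value most were the overlap that made a call at WT sites, between -14.7 and -3.86, and leaving out *mbd9-1* replicate 3 for the place in the gene. The cause was not tested. With no reads in the lists, a site that lost its peak cannot be told from a site that fell just under the caller's threshold, and a share of peaks under H4Ac cannot be corrected for depth. WT H4Ac says nothing of acetylation in *mbd9-1*.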
